A study of Mus musculus with 6 samples.

Results

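The genes described here are 9 neighbours of *Pou4f3* on mouse chromosome 18, taken by name from the 51802 gene symbols listed for each sample: *Prelid2*, *Sh3rf2*, *Plac8l1*, *Lars* and *Rbm27* proximal to it, and *Ppp2r2b*, *Stk32a*, *Dpysl3* and *Jakmip2* distal to it. They were chosen by position, and the question was whether RNA from genes around the targeted allele differed between the genotypes. RNA was sequenced from cochleae of mice at 2 months of age, 3 wildtype (*Pou4f3(+/+)*, replicates 3, 4 and 5) and 3 heterozygous mutants (*Pou4f3(Δ/+)*, replicates 1, 2 and 3), all given the strain label C57/BL6J. The *Pou4f3Δ* allele carries an 8 nucleotide deletion and a C-to-T change and models DFNA15, a dominant progressive deafness. The mutation is a germline knock-in under the gene's own promoter, so every cell of the animal carries it. The allele was made with a vector from a 129/sv clone in W4 embryonic stem cells, with a loxP-flanked neomycin cassette in place of the end of exon 2. Whether that cassette was still in these mice, how many backcrosses preceded them and whether a sample pools animals are not given in the sources used here. Nothing says that the samples of a genotype came from separate animals, so the p-values measure the spread between these samples, which may be technical.

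*Pou4f3* encodes the POU-domain transcription factor that hair cells need to mature and survive. A targeted allele travels with its neighbourhood: DNA next to it keeps the strain of the embryonic stem cells until recombination removes it, a selection cassette can act on nearby promoters, and a transcription factor gene can lie among enhancers that other genes also use. Such effects act on the same chromosome, so a flanking gene silenced on the targeted copy would fall to the output of the other copy, a log2 fold change of -1. The 9 genes themselves serve unrelated tasks in protein synthesis, RNA processing, signalling and the neuronal cytoskeleton.

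For each sample the authors deposited expected counts (estimated fragments per transcript, which need not be whole) and FPKM (the same fragments relative to transcript length and to sample depth). Summed counts lay between 14295069 and 17696784 per sample. The cochlear label was borne out by 7 hair cell markers, all detected with at least 60 counts in every sample. *Pou4f3(Δ/+)* replicates 1 and 2 stood apart from the other samples. The summed level of 9 B cell markers was 334 to 375 normalized CPM (counts relative to the library total after TMM scaling) in wildtype and 590, 655 and 385 in *Pou4f3(Δ/+)* replicates 1, 2 and 3. That of 10 neuronal markers, all detected, was 1936 to 2098 in wildtype and 1755, 1576 and 2131. An unadjusted p under 0.05 was given to 8 of the 9 B cell markers and 1 of 5 red cell markers, all higher in *Pou4f3(Δ/+)*. It was also given to 2 of 6 bone, 1 of 6 Schwann cell and 2 of 4 stria and fibrocyte markers, all lower. It was given to 0 of the neuronal and hair cell markers, and to 7.64% of all genes tested. The median log2 fold change of the B cell markers was 0.88 in all samples and 0.21 without mutant replicates 1 and 2. For red cell markers it was 0.30 and -0.05, for Schwann cell markers -0.08 and 0.17, and for neuronal markers -0.15 and 0.12. For bone markers it was -0.16 and -0.22, for stria and fibrocyte markers -0.31 and -0.18, and for hair cell markers -0.02 and -0.0069. Without mutant replicate 3, 17.4% of all genes had an unadjusted p under 0.05. In that fit all 5 red cell markers and 8 B cell markers had one, all higher. So did 6 neuronal, 2 Schwann cell, 2 bone and 2 stria and fibrocyte markers and 1 hair cell marker, all lower. In whole cochleae, fewer cells of a type and less RNA per cell cannot be told apart.

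Of the 9 flanking genes, 8 had enough counts to be tested and *Plac8l1* did not. None of the 8 passed edgeR's quasi-likelihood test between genotypes: 0 had an adjusted p under 0.05, where 0% of the 17136 genes tested did, and 0 had an unadjusted p under 0.05, where 7.64% of all genes did. Their adjusted p-values ran from 0.650 to 0.981. By sign, 4 were higher and 4 lower in *Pou4f3(Δ/+)*. Their median log2 fold change was 0.02, beside -0.0027 over all genes tested, and their median absolute log2 fold change was 0.18, beside 0.12. By DESeq2 on the same counts, 1 of the 8, *Dpysl3*, had an unadjusted p under 0.05 (6.73% of all genes did), and 0 of the 5 that DESeq2 gave an adjusted p had one under 0.05 (0.453% of all genes with an adjusted p did). Without *Pou4f3(Δ/+)* replicates 1 and 2, 0 of the 8 had an unadjusted p under 0.05 by edgeR, beside 3.62% of genes.

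**Figure D1:**
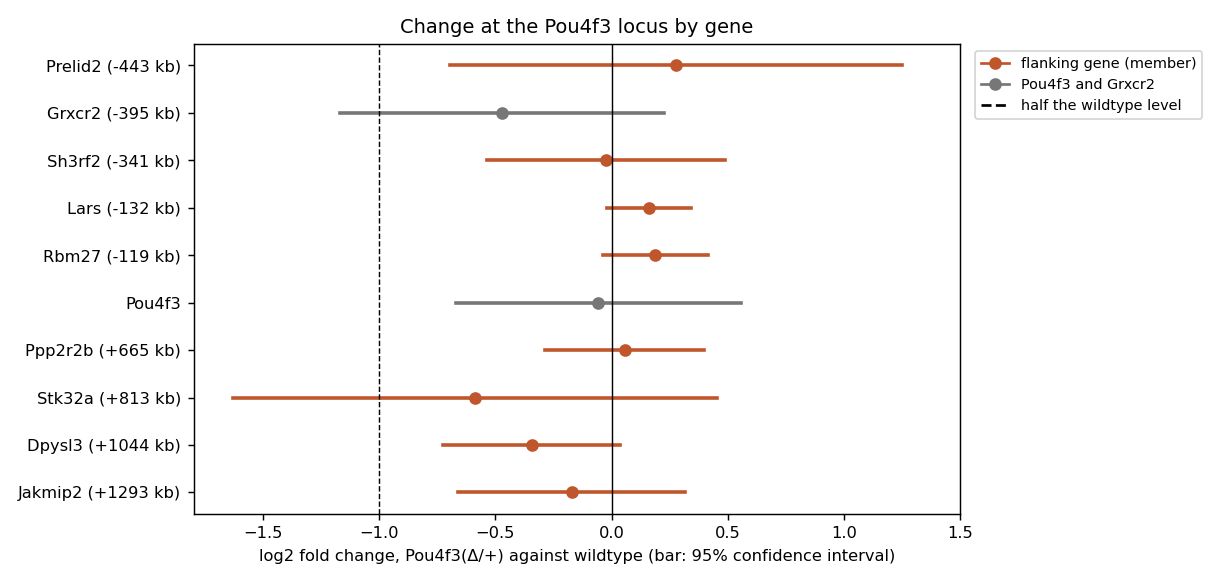
Log2 fold change of *Pou4f3(Δ/+)* against wildtype for 8 flanking genes, *Pou4f3* and *Grxcr2*, from edgeR (n = 3 per genotype), in order along the chromosome with the distance between gene starts in kb; bars are 95% confidence intervals and the dashed line marks -1. All 10 intervals include 0, and only those of *Stk32a* and *Grxcr2* reach -1.

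The intervals give the sizes of difference between genotypes that these samples leave possible, whatever their source, cell makeup included. For 7 of the 8 genes the 95% confidence interval of the log2 fold change excluded -1, the level to which a gene would drop if 1 of its 2 copies gave no RNA. *Stk32a*, read from 11 to 35 counts per sample, was the exception. The intervals were narrowest for *Lars* and *Rbm27*, the closest members, and allowed *Lars* to lie between 0.987 and 1.27 times its wildtype level and *Rbm27* between 0.974 and 1.33 times.

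*Lars* and *Rbm27* stand closest to *Pou4f3* among the 9 genes, and both were slightly higher by sign in *Pou4f3(Δ/+)*. *Lars* (ENSMUSG00000024493, GRCm38 chromosome 18 from 42202298 to 42262194, minus strand) starts 132 kb proximal to *Pou4f3* and encodes the cytosolic leucyl-tRNA synthetase, which charges tRNA with leucine. It had 61.7, 59.8 and 54.1 normalized CPM in the wildtype samples (replicates 3, 4, 5), against 66.7, 66.0 and 63.6 in the mutants (replicates 1, 2, 3; values follow this order from here on). All 3 mutant samples lay above all 3 wildtype samples, which made *Lars* the only 1 of the 8 genes whose groups did not overlap. Among all genes tested, 6.07% had mutant samples wholly above wildtype samples and 6.59% had them wholly below. The difference was 11.8%, a log2 fold change of 0.16 (SE 0.08, 95% confidence interval -0.02 to 0.34, adjusted p = 0.650 by edgeR). An exact permutation test of 3 against 3 samples cannot give a p below 0.1. In FPKM, the wildtype mean was 15.2 ± 1.08 and the mutant mean 17.0 ± 0.289 (SD, 3 samples each). The gene kept its positive sign in all 14 alternatives, between 0.11 and 0.20, and was at 0.12 without *Pou4f3(Δ/+)* replicates 1 and 2. A ribosomal protein pseudogene on the opposite strand within *Lars*, *Rps19-ps4*, held at most 1 count in a sample.

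The other aminoacyl-tRNA synthetases and their scaffold proteins gave the background for *Lars*. The list held 24 symbols, 2 of them (*Mars* and *Mars1*) for the same gene, and all but *Mars1* were in the files. All 23 genes were tested: 19 were higher and 4 lower by sign, and the median log2 fold change was 0.09. Mutant samples lay wholly above wildtype for 3 of them, beside 6.07% of all genes. *Hars*, the histidyl-tRNA synthetase, was the 1 gene with an unadjusted p under 0.05 (log2 fold change 0.19, SE 0.08, adjusted p = 0.643 by edgeR). *Hars* itself lies on chromosome 18, 5.61 Mb proximal to *Pou4f3*. Without mutant replicate 3, 11 of the 23 had an unadjusted p under 0.05, all higher, with a median of 0.17 (17.4% of all genes did in that fit). Without *Pou4f3(Δ/+)* replicates 1 and 2, 6 of the 23 were higher and 17 lower, with a median of -0.08. B cell markers were high in the same 2 samples, and their part in these signs was not tested.

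*Rbm27* (ENSMUSG00000024491, 42275353 to 42341542, plus strand) starts 119 kb proximal to *Pou4f3* and encodes a zinc finger protein that binds RNA. It had 64.7, 73.2 and 72.1 normalized CPM in wildtype and 90.1, 76.5 and 72.4 in *Pou4f3(Δ/+)*. Replicate 1 of the mutants was the highest sample, replicate 2 lay just above the wildtype range and replicate 3 within it. The log2 fold change was 0.19 (SE 0.10, 95% confidence interval -0.04 to 0.41, adjusted p = 0.661 by edgeR). Leaving out mutant replicate 3 brought it to 0.26 (adjusted p = 0.242 by edgeR, in a fit that gave an unadjusted p under 0.05 to 17.4% of genes), leaving out mutant replicate 1 brought it to 0.09, and leaving out replicates 1 and 2 brought it to 0.05. Its paralogue *Rbm26* had a log2 fold change of 0.02 (SE 0.07).

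**Figure D2:**
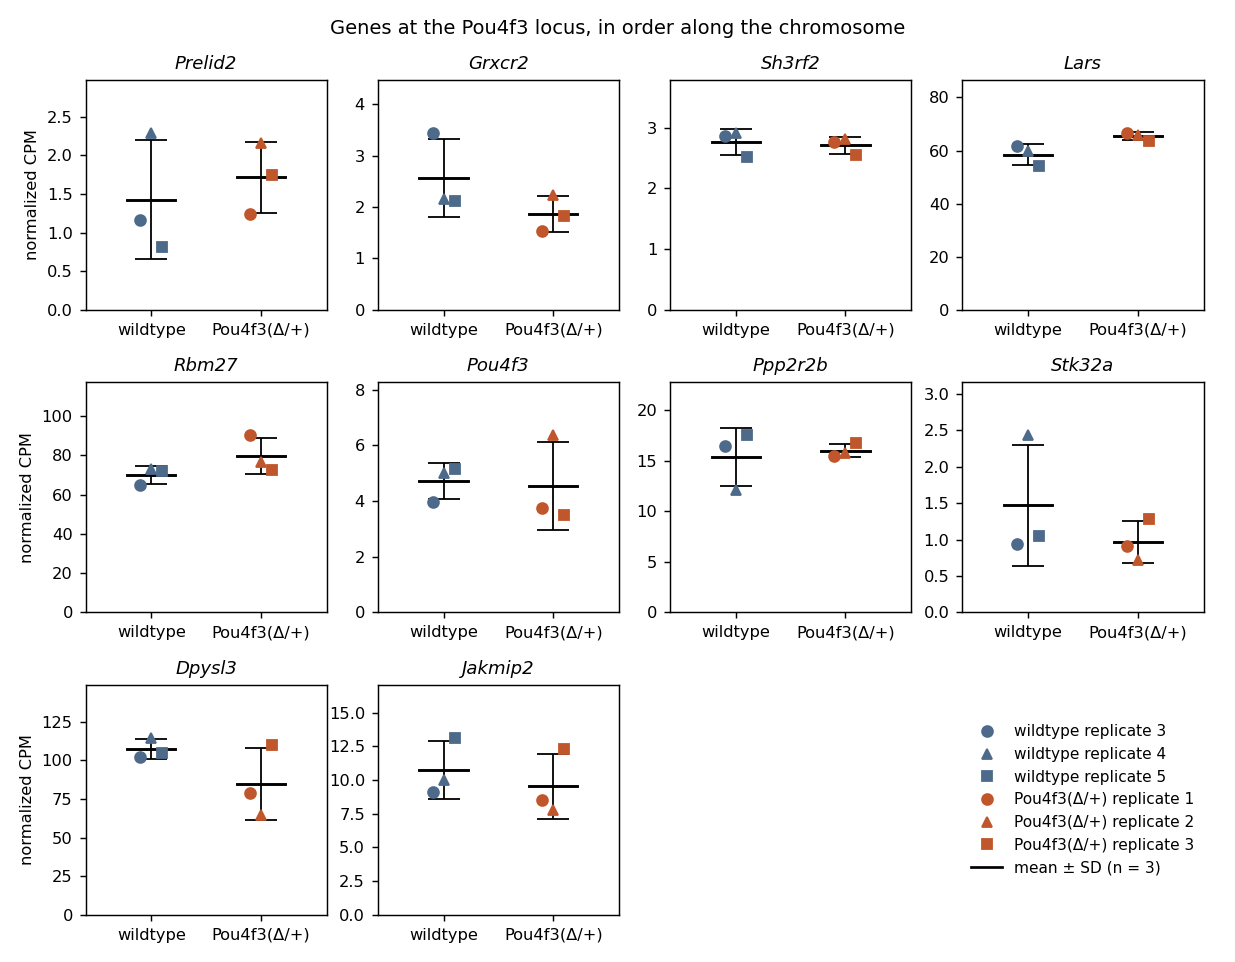
Normalized CPM (linear axis from 0) of 8 flanking genes, *Pou4f3* and *Grxcr2* in each sample, with the mean ± SD of 3 samples per genotype. The genotypes overlap in every panel but that of *Lars*, and *Dpysl3* shows mutant replicates 1 and 2 below and replicate 3 inside the wildtype range.

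The 3 distal genes with roles in neurons were *Dpysl3*, *Jakmip2* and *Ppp2r2b*, and none of them passed the test. *Dpysl3* (ENSMUSG00000024501, 43320984 to 43438286, minus strand, start 1044 kb distal) encodes a collapsin response mediator protein, CRMP4, that organizes actin and microtubules in growing axons. It had 102, 115 and 105 normalized CPM in wildtype and 79.0, 64.5 and 110 in *Pou4f3(Δ/+)*. Mutant replicates 1 and 2 lay below every wildtype sample and mutant replicate 3 lay among them. The log2 fold change was -0.34 (SE 0.17, 95% confidence interval -0.73 to 0.04, adjusted p = 0.650 by edgeR). Its unadjusted p was under 0.05 by DESeq2 and by edgeR without a filter on low counts (7.00% of genes in that fit), with adjusted p-values of 0.649 and 0.605. Without mutant replicate 3 the log2 fold change was -0.57 (SE 0.11, adjusted p = 0.0525 by edgeR, where 1.10% of genes passed an adjusted p of 0.05). Without mutant replicate 2 it was -0.18, and without mutant replicates 1 and 2 it was 0.04.

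Summed neuronal and Schwann cell markers were low in the same mutant replicates 1 and 2 as *Dpysl3*. Of the 10 neuronal markers, 9 were lower by sign in *Pou4f3(Δ/+)*, 0 had an unadjusted p under 0.05, and the median log2 fold change was -0.15. Without mutant replicate 3, 6 of the 10 had an unadjusted p under 0.05, all lower, with a median of -0.30 (17.4% of all genes did in that fit). Without mutant replicates 1 and 2, 8 of the 10 were higher, with a median of 0.12. The summed level of 6 Schwann cell markers was 1867 to 2188 normalized CPM in wildtype and 1624, 1658 and 2183 in the mutants. That of 4 stria and fibrocyte markers, most of it *Coch*, was 5533 to 7352 in wildtype and 5283, 5652 and 5493 in the mutants. Their mean log2 level, which weights the 4 genes equally, was 8.03 to 8.13 in wildtype and 7.63, 7.51 and 7.99 in the mutants, lowest in replicates 1 and 2. The part of these cell types in the *Dpysl3* values was not tested. Of the 4 other members of the CRMP family, 3 were tested and 0 had an unadjusted p under 0.05: *Dpysl2* was at 0.04 (SE 0.07), *Crmp1* at -0.18 (SE 0.20) and *Dpysl5* at -0.48 (SE 0.31) on the log2 scale.

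*Jakmip2* (ENSMUSG00000024502, 43531407 to 43687773, minus strand, start 1293 kb distal) encodes a coiled-coil protein of the Janus kinase and microtubule interacting family. It had 9.10, 9.996 and 13.1 normalized CPM in wildtype and 8.54, 7.80 and 12.3 in *Pou4f3(Δ/+)*. Its samples were spread alike in both genotypes, with mutant replicates 1 and 2 the lowest of the 6. The log2 fold change was -0.17 (SE 0.22, 95% confidence interval -0.66 to 0.32, adjusted p = 0.843 by edgeR). It was 0.20 without mutant replicates 1 and 2 and -0.00050 without wildtype replicate 5 alone. *Jakmip1*, its paralogue, was at 0.29 (SE 0.16) on the same scale.

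*Ppp2r2b* (ENSMUSG00000024500, 42637432 to 43059471, minus strand, start 665 kb distal) encodes a B-type regulatory subunit of protein phosphatase 2A, known for its high expression in brain. It had 16.4, 12.1 and 17.5 normalized CPM in wildtype and 15.5, 15.8 and 16.8 in *Pou4f3(Δ/+)*. The mutant samples fell inside the wildtype range, and the log2 fold change was 0.06 (SE 0.15, 95% confidence interval -0.29 to 0.40, adjusted p = 0.940 by edgeR). Other genes of the phosphatase 2A complex and its modifying enzymes were mixed in sign, with 10 higher and 6 lower by sign of 16 tested out of 17, a median of 0.01, and *Ppp2r5b* listed at 0 counts. Without mutant replicates 1 and 2 the split was 4 higher and 12 lower, and without mutant replicate 3 it was 8 and 8. With all 6 samples, *Ppp2r2c*, another brain-type B subunit, was the 1 gene of that list with an unadjusted p under 0.05 (log2 fold change -0.25, SE 0.11, adjusted p = 0.643 by edgeR). An antisense gene inside *Ppp2r2b*, 4933407I08Rik, held at most 2 counts in a sample. Whether the counting used strand is not given in the sources used here.

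The other 4 genes gave few or no reads in the cochlea. *Sh3rf2* (ENSMUSG00000057719, 42053667 to 42158960, plus strand, start 341 kb proximal), a RING and SH3 domain protein, was the steadiest. It had 49, 42 and 43 counts in wildtype and 49, 43 and 38 in *Pou4f3(Δ/+)*, which is 0.54 to 0.58 FPKM in all 6 samples. The genotypes coincided, with a log2 fold change of -0.02 (SE 0.23, 95% confidence interval -0.54 to 0.49, adjusted p = 0.981 by edgeR).

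*Prelid2* (ENSMUSG00000056671, 41875600 to 41951242, minus strand, start 443 kb proximal) belongs to the PRELI family, whose best known members carry lipids within mitochondria. It had 20, 33 and 14 counts in wildtype and 22, 33 and 26 in *Pou4f3(Δ/+)*, and the ranges overlapped. Its log2 fold change was 0.28 (SE 0.43, 95% confidence interval -0.69 to 1.25, adjusted p = 0.879 by edgeR), and it reached 0.79 without wildtype replicate 4 and -0.0022 without wildtype replicate 5. *Stk32a* (ENSMUSG00000039954, 43207583 to 43318682, plus strand, start 813 kb distal), a serine/threonine kinase, had 16, 35 and 18 counts in wildtype and 16, 11 and 19 in *Pou4f3(Δ/+)*. Wildtype replicate 4 stood above the other 5 samples, which lay close together. The log2 fold change of -0.59 (SE 0.46, 95% confidence interval -1.63 to 0.45, adjusted p = 0.752 by edgeR) became -0.04 without that sample. *Plac8l1* (ENSMUSG00000059455, 42178683 to 42196709, minus strand, start 198 kb proximal) had 0 counts in every sample, which allows up to 0.232 to 0.287 FPKM per sample at a limit of 3 counts (counting error only).

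Other paralogues of the flanking genes made a list of 12, with *Rbm26* and *Jakmip1* above among them, of which 9 were tested. In it, 3 were higher and 6 lower by sign, and 2 had an unadjusted p under 0.05, both lower in *Pou4f3(Δ/+)*. Among all genes tested, 7.64% had an unadjusted p under 0.05 and 6.59% had mutant samples wholly below wildtype samples. *Stk32b*, a sister kinase of *Stk32a*, had 0.700, 1.04 and 0.938 normalized CPM in wildtype and 0.396, 0.393 and 0.471 in *Pou4f3(Δ/+)*, groups that did not overlap at a level of few reads (log2 fold change -1.07, SE 0.40, adjusted p = 0.643 by edgeR). *Plac8*, a gene of blood and barrier cells related to *Plac8l1*, had a log2 fold change of -0.28 (SE 0.11, adjusted p = 0.643 by edgeR).

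*Pou4f3* itself (42394539 to 42397249, plus strand) and *Grxcr2*, interleaved with the 9, did not pass the test either, and *Gpr151* had too few counts for it. Counts of *Pou4f3* hold both alleles together, and its log2 fold change had a 95% confidence interval of -0.67 to 0.56. *Grxcr2*, which starts 395 kb proximal and encodes a protein of hair cell stereocilia needed for hearing, had 59, 31 and 36 counts in wildtype and 27, 34 and 27 in *Pou4f3(Δ/+)*. Wildtype replicate 3 was the highest sample and the others overlapped. Its log2 fold change of -0.47 (SE 0.31, 95% confidence interval -1.17 to 0.23, adjusted p = 0.706 by edgeR) became -0.20 without that sample. The 7 hair cell markers had 3 genes higher and 4 lower by sign and 0 with an unadjusted p under 0.05. *Gpr151*, an orphan receptor of habenular neurons, had at most 1 count in a sample.

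Levels along this stretch of chromosome differed widely: the mean CPM of *Stk32a* exceeded that of 8.46% of the genes tested, and that of *Dpysl3* exceeded 85.1%. Ordered by mean FPKM over the 6 samples, *Dpysl3* stood at 20.1, *Lars* at 16.1, *Rbm27* at 12.0 and *Ppp2r2b* at 7.05. *Jakmip2* followed at 2.89, *Prelid2* at 2.17, *Grxcr2* at 1.97 and *Pou4f3* at 1.95, and then *Sh3rf2* at 0.555 and *Stk32a* at 0.325. The ranges over samples were apart between *Rbm27* and *Ppp2r2b*, between *Ppp2r2b* and *Jakmip2*, between *Pou4f3* and *Sh3rf2* and between *Stk32a* and *Gpr151*. The other neighbours in the order overlapped in range. Of these, *Lars* was above *Rbm27* within each of the 6 samples. The ranks of the other overlapping pairs are not settled by these samples.

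The files list 23 transcripts for the 9 genes, of which 14 could be tested and 7 had 0 counts in every sample. Of the 14, 0 had an unadjusted p under 0.05 (4.14% of all 38347 transcripts did), and 7 were higher and 7 lower by sign. *Rbm27* has 2 protein-coding transcripts. ENSMUST00000091920, the more abundant, had 6.68, 8.03 and 8.14 FPKM in wildtype and 9.87, 8.78 and 8.66 in *Pou4f3(Δ/+)* (log2 fold change 0.25, SE 0.11, adjusted p = 0.999 by edgeR). ENSMUST00000046972 had a log2 fold change of 0.02 (SE 0.17). The difference between the 2 transcripts was not tested.

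*Dpysl3* was read mainly from ENSMUST00000121805, whose share of the summed FPKM was 83.9% in wildtype and 77.9% in the mutants, with a log2 fold change of -0.36 (SE 0.19). The second protein-coding form, ENSMUST00000025379, was at -0.41 (SE 0.36). Another entry, ENSMUST00000135547, which was not found in GENCODE M21, had 1.27, 0 and 0 FPKM in wildtype and 1.66, 2.19 and 1.25 in *Pou4f3(Δ/+)*. It was present in every mutant sample and listed at 0 in wildtype replicates 4 and 5, while wildtype replicate 3 fell inside the mutant range. Its unadjusted p was under 0.05 by limma-trend on log2 FPKM at each of 3 pseudocounts, which are fits of the same FPKM values. The adjusted p-values by limma-trend were 0.892, 0.904 and 0.875 (pseudocounts 0.5, 0.1 and 1). By edgeR the unadjusted p was not under 0.05 with all 6 samples, but it was without wildtype replicate 3 (adjusted p = 0.774). In that fit the remaining wildtype samples are both listed at 0.

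**Figure D3:**
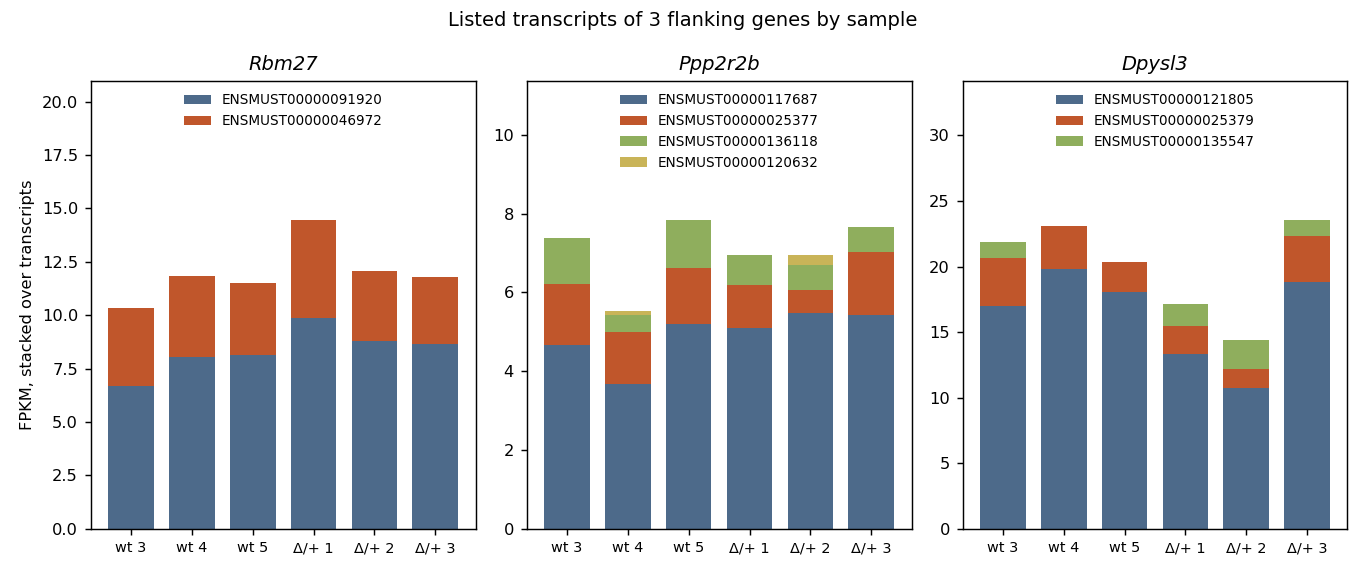
FPKM of the expressed transcripts of *Rbm27*, *Ppp2r2b* and *Dpysl3*, stacked within each sample (wt, wildtype; Δ/+, *Pou4f3(Δ/+)*; replicate numbers follow). The main transcript of *Dpysl3* is shorter in mutant replicates 1 and 2 than in any other sample, and in mutant replicate 3 it lies inside the wildtype range.

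*Ppp2r2b* was read mainly from ENSMUST00000117687, with 4.66, 3.68 and 5.19 FPKM in wildtype and 5.09, 5.48 and 5.44 in *Pou4f3(Δ/+)* (log2 fold change 0.24, SE 0.18). Its share of the sum was 65.2% for wildtype and 74.3% for the mutants. The protein-coding ENSMUST00000025377 was at -0.39 (SE 0.40) and the processed transcript ENSMUST00000136118 at -0.51 (SE 0.47) on the log2 scale, so the flat sum joined forms of opposite sign, none of which passed the test. The steady sum of *Sh3rf2* also joined 2 forms that traded places between samples. ENSMUST00000072008 had 0.56, 0.58 and 0.17 FPKM in wildtype and 0.41, 0.54 and 0.20 in *Pou4f3(Δ/+)*, and ENSMUST00000074679 had 0, 0 and 0.37 and then 0.15, 0 and 0.35. Samples low in the first form were high in the second, in both genotypes. The other 5 genes are listed with 1 transcript each: ENSMUST00000070949 for *Prelid2*, ENSMUST00000081374 for *Plac8l1*, ENSMUST00000097590 for *Lars*, ENSMUST00000045477 for *Stk32a* and ENSMUST00000082254 for *Jakmip2*.

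A linked effect could reach beyond the 9 genes, so all tested genes of chromosome 18 were laid out by distance from *Pou4f3*. Within 1 Mb, 0 of 9 genes had an unadjusted p under 0.05, and between 1 and 2 Mb 0 of 6 did. Between 2 and 5 Mb 5 of 75 did (6.67%), between 5 and 10 Mb 4 of 87 (4.60%), and beyond 10 Mb 19 of 276 (6.88%). The share on chromosome 18 (6.18% of 453 genes without *Pou4f3*) lay below the 7.68% of the other chromosomes and, with *Pou4f3* counted, was the 2nd lowest of the 19 autosomes, which ran from 5.85% to 10.1%. The genotypes did not overlap for 11.1% of genes within 1 Mb, 0% at 1 to 2 Mb, 18.7% at 2 to 5 Mb and 5.75% at 5 to 10 Mb, beside 12.7% of all genes tested. The median absolute log2 fold change within 5 Mb was 0.19, and 0.13 without the protocadherin genes, beside 0.12 over all genes.

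By sign, 27 of the 90 genes within 5 Mb were higher and 63 lower in *Pou4f3(Δ/+)*, with a median log2 fold change of -0.11. Over all 17136 genes tested, 8472 were higher and 8664 lower, and between 5 and 10 Mb from *Pou4f3* 38 were higher and 49 lower. Protocadherin genes, which encode adhesion proteins and lie at the proximal end of this window, most of them in clusters, made up 38 of the 90. Without them 18 of the other 52 genes were higher and 34 lower, the median was -0.06, and 3 of them (5.77%) had an unadjusted p under 0.05. Without mutant replicates 1 and 2, 46 genes were higher and 47 lower, with a median of -0.01. Without mutant replicate 3, 21 of 93 genes had an unadjusted p under 0.05, beside 17.4% of all genes in that fit, and the median was -0.20.

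**Figure D4:**
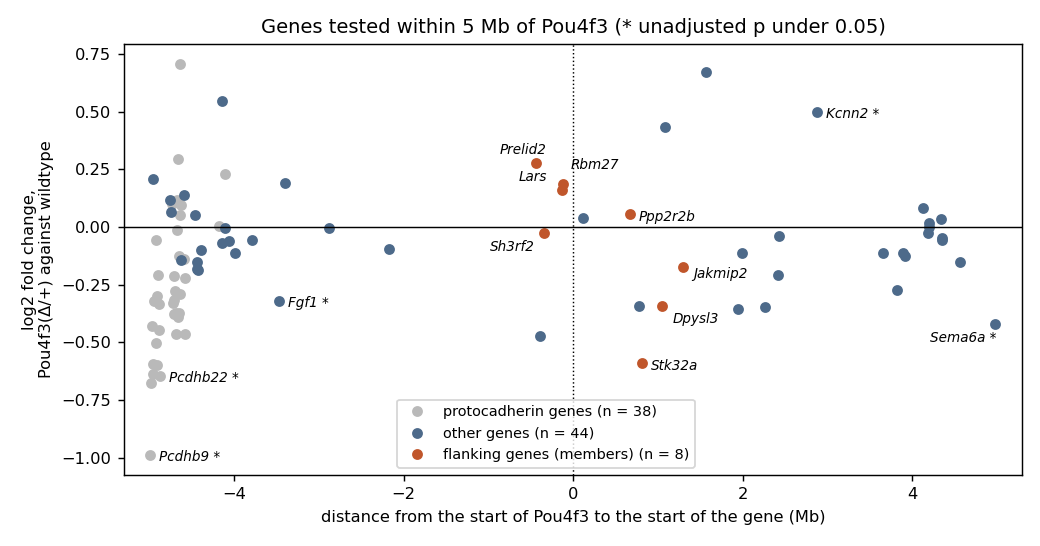
Log2 fold change of *Pou4f3(Δ/+)* against wildtype for the 90 tested genes that start within 5 Mb of *Pou4f3*, against the distance between gene starts in Mb (negative, proximal). Asterisks mark the 5 genes with an unadjusted p under 0.05, which start 2.87 to 4.99 Mb away, and the 8 tested flanking genes lie on both sides of 0.

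The 5 genes of this window with the smallest p all had an adjusted p of 0.643 by edgeR. *Kcnn2*, a calcium-activated potassium channel of outer hair cells and neurons that starts 2.87 Mb distal, was the only 1 of them that was higher. It had 12.9, 15.4 and 20.2 normalized CPM in wildtype and 21.5, 20.8 and 26.2 in *Pou4f3(Δ/+)*, and the groups did not overlap (log2 fold change 0.50, SE 0.17). *Fgf1*, a fibroblast growth factor 3.47 Mb proximal, had 215, 234 and 262 and then 188, 157 and 225, with mutant replicate 3 inside the wildtype range (log2 fold change -0.32, SE 0.13). The other 3 also had groups that did not overlap, all lower in the mutants. These genes were picked by smallest p, which favours such separation, and 12.7% of all genes tested had groups that did not overlap. *Sema6a*, an axon guidance molecule 4.97 Mb distal, had 23.7, 26.7 and 32.7 and then 21.4, 22.5 and 18.2 (log2 fold change -0.42, SE 0.14). The protocadherin *Pcdhb9* had 3.498, 4.44 and 3.87 and then 1.19, 2.29 and 2.49 (-0.99, SE 0.31), and *Pcdhb22* had 8.63, 9.09 and 12.02 and then 6.33, 4.33 and 8.34 (-0.65, SE 0.25).

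These 5 genes differed in what was left without mutant replicates 1 and 2. *Kcnn2* was at 0.70, *Sema6a* at -0.61, *Pcdhb9* at -0.66, *Pcdhb22* at -0.25 and *Fgf1* at -0.08 on the log2 scale. Leaving out each of the 6 samples in turn, *Pcdhb9* had an unadjusted p under 0.05 by edgeR in all 6 fits. *Sema6a* had one in 4 of these fits, *Kcnn2* and *Pcdhb22* in 3 and *Fgf1* in 2. Of a list of 27 named neighbours across the window, 25 were tested, 5 were higher and 20 lower by sign, and 3 had an unadjusted p under 0.05 (beside 7.64% of all genes), namely *Kcnn2*, *Fgf1* and *Sema6a*. Without mutant replicates 1 and 2, 9 were higher and 16 lower.

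**Figure D5:**
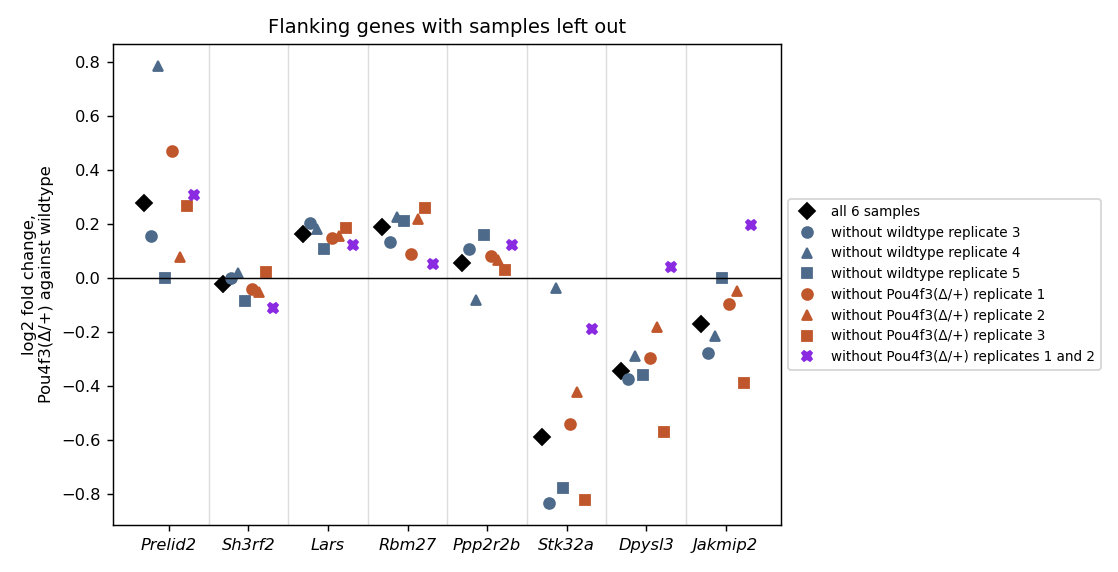
Log2 fold change of the 8 tested flanking genes in the fit of all 6 samples and with samples left out, from edgeR. *Lars* and *Rbm27* stay above 0 in all 8 fits, while *Dpysl3* runs from -0.57 to 0.04 and *Jakmip2* from -0.39 to 0.20 according to which samples remain.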

How the data were processed

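Cochlear RNA (RIN above a stated minimum, poly(A) selection or rRNA removal) was sequenced in paired-end reads. The authors deposited expected counts per transcript, not normalized, and FPKM values, scaled to transcript length and summed counts, with a length per transcript. The submitters' processing notes name DESeq2 and mm8. The aligner and counting program are not given in the sources used here. Of 128603 transcripts, 99.5% were found in GENCODE M21 (GRCm38), with equal genomic span for 97.2% of those, and coordinates are from that annotation.

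Counts were summed per gene symbol, rounded, and tested over all 6 samples without covariates with edgeR 4.0.16 (R 4.3.3): filterByExpr (minimum count 10, total 15), TMM, quasi-likelihood test and Benjamini-Hochberg adjustment over all genes. A sum per gene does not depend on how reads were divided among its transcripts (82.2% of counts above 0 were not whole). Standard errors are the log2 fold change over the square root of F. The main edgeR fit, DESeq2 and limma-trend with a pseudocount of 0.5 were run on simulated data with 200 changed features, for genes and for transcripts. The other alternatives, those with samples left out included, were not run on simulated data. Alternatives were DESeq2 1.42.0, its size factors in edgeR, no filter, a mean FPKM of at least 1, limma-trend 3.58.1 on log2(FPKM + 0.5), + 0.1 and + 1, each sample left out, and mutant replicates 1 and 2 left out together.

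The members, the lists and the alternatives were chosen with earlier results of these data known. Named are the 9 genes, *Pou4f3* and 2 interleaved genes; listed neighbours with an unadjusted p under 0.05 and the 5 smallest p within 5 Mb; main transcripts; and the smallest p in each family list. 1 more gene chosen this way is not reported here. *Dpysl2*, *Crmp1*, *Rbm26*, *Jakmip1*, *Plac8*, *Ppp2r5b*, ENSMUST00000135547 and the other transcripts given were named after their values were seen. Samples differed beyond counting error (chi-square per degree of freedom 7.35 to 26.2), and none was merged.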

Additional observations from a re-analysis of the deposited data

How the results depend on the processing

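Of the 8 tested flanking genes, 0 had an adjusted p under 0.05 in any of the 14 alternatives. The count with an unadjusted p under 0.05 was 1 by DESeq2 and 1 without a filter, both times *Dpysl3*, and 0 to 2 with each sample left out, 2 being *Dpysl3* and *Rbm27* without mutant replicate 3. Over all genes, the count with an adjusted p under 0.05 was 64 by DESeq2, 9 without a filter, 1 by limma-trend with a pseudocount of 0.1, 6 without mutant replicates 1 and 2 and 0 to 193 with each sample left out (193 without mutant replicate 3, 3 without wildtype replicate 4), and the count with an unadjusted p under 0.05 was 655 without mutant replicates 1 and 2 and 737 to 3041 with each sample left out. Within 5 Mb the latter count was 8 without a filter and 3 to 21 with each sample left out, and the median log2 fold change was -0.0079 without mutant replicates 1 and 2 and -0.20 to -0.05 with each sample left out. Of the member transcripts, 1 had an unadjusted p under 0.05 in each limma-trend fit (ENSMUST00000135547), and 0 to 1 with each sample left out (1 without wildtype replicate 3, the same transcript, 1 without wildtype replicate 5, ENSMUST00000091920 of *Rbm27*, and 1 without mutant replicate 3, ENSMUST00000121805 of *Dpysl3*). The sign turned without mutant replicates 1 and 2 for *Dpysl3* (0.039) and *Jakmip2* (0.20), and with a sample left out for *Prelid2* (-0.0022 to 0.79), *Sh3rf2* (-0.087 to 0.022), *Ppp2r2b* (-0.081 to 0.16) and *Pou4f3* (-0.38 to 0.10). The cause was not tested. Where mutant replicates 1 and 2 were left out, the lone mutant sample was assumed to vary like the wildtype samples. The mean FPKM filter left *Sh3rf2* and *Stk32a* untested. Depth limits *Prelid2*, *Sh3rf2*, *Stk32a* and *Grxcr2*, at 11 to 59 counts per sample. No paired analysis was possible because the groups share fewer than 2 replicate numbers.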
